A study of Mus musculus with 4 samples.

Results

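Solute carrier (SLC) transporters are membrane proteins that move amino acids, sugars, metals, nucleotides, vitamins and ions across the plasma membrane and the membranes of mitochondria, lysosomes and the Golgi. The genes examined were chosen by name and by summed reads: those listed as protein-coding, with a symbol made of Slc, a family number and a letter, and with at least 100 reads summed over the 4 libraries. Of 371 such symbols in the table of 54532 genes, 8 were set aside by name (Slc2a1, Slc2a3, Slc16a3, Slc7a2, Slc7a11, Slc40a1, Slc11a1 and Slc29a1), 186 had fewer than 100 reads and 177 were kept as members. Of the 186, 92 had no read in any library. 4 of the 177 members carry an SLC symbol without being carriers (Slc9a3r1, Slc9a3r2, Slc4a1ap and Slc7a6os), which leaves 173 carriers.

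The members were measured by RNA-seq in wild-type (WT) mouse macrophages from peritoneal fluid, with 1 library for each of 4 conditions. The cells had been kept in normal medium (RPMI complete medium) or in medium with 30% 4T1-conditioned medium (4T1-CM, the supernatant of the 4T1 mouse mammary carcinoma cell line), each with DMSO or with 10 µM CH223191, an inhibitor of the aryl hydrocarbon receptor (AHR). In the methods of the study, peritoneal macrophages came from BALB/c mice after thioglycollate injection, WT mice were aged 8 to 10 weeks and the compounds were added 2 h ahead of the medium; the time in 4T1-CM and the number of mice behind each of these libraries are not given in the sources used here. The comparisons ask how 4T1-CM altered the transporter genes with DMSO and with the inhibitor, and what the inhibitor altered in each medium.

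As background, the SLC families differ in how they work. Some couple uptake to sodium or protons, some exchange a substrate for another, and some let a substrate run down its gradient. Macrophages use them to feed on, store or expel nutrients, and this cell type is known for handling iron, zinc and copper through such carriers.

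With 1 library per condition no single comparison had a replicate check, so ratios are given with 95% exact Clopper-Pearson intervals of the split of reads between the libraries of a comparison. These intervals cover counting error only. The totals lay between 15535405 and 17557127 reads per library, so a count of 0 allowed a level of up to 0.171 to 0.189 CPM (counts scaled to a fixed library size), taken as 3 reads. The macrophage label was met by the markers: 8 of 8 had at least 10 reads in a library, and their summed level, mostly from Lyz2, was 14200 and 18403 CPM without 4T1-CM (DMSO, CH223191) and 37599 and 40127 with it, 3 of the 8 being past 2-fold higher in both comparisons. The marker Mrc1 went the other way, with log2 ratios of 4T1-CM to normal medium of -0.78 (DMSO) and -0.62 (CH223191). Sums of markers of other cells moved with the medium as well. The 6 fibroblast markers summed to 63.0 and 30.1 CPM without 4T1-CM and to 149 and 127 with it. Of the 5 measured, 4 were past 2-fold higher in both comparisons. The 8 neutrophil markers summed to 65.4, 73.3, 119 and 134, nearly all from Csf3r (929, 959, 1521 and 1759 reads) and S100a8 (99, 190, 560 and 412). Cxcr2 went the other way (12, 9, 2 and 0 reads), and S100a9, Ly6g and Retnlg had 0 reads. The 5 eosinophil markers summed to 16.2 and 14.4 CPM without 4T1-CM and to 6.17 and 5.79 with it, nearly all from Siglecf (251, 221, 105 and 88 reads, log2 ratios -1.39 and -1.35), while Epx, Prg2 and Ear1 had 0 reads. The B cell markers summed to 20.2 and 34.3 CPM without 4T1-CM and to 7.94 and 5.29 with it, and Cd3e, Cd3d, Cd3g and Krt19 had 0 reads in each library. The share of mitochondrial genes among reads was 0.633% (95% exact interval 0.629 to 0.637) without 4T1-CM or inhibitor and 1.17% (1.16 to 1.17) with CH223191 alone, against 1.76% (1.75 to 1.76) and 1.79% (1.79 to 1.8) in 4T1-CM. Over the protein-coding genes with at least 100 reads, ratios went with gene length most in the comparisons that use the library of normal medium with CH223191, with Spearman's rho of 0.28 for 4T1-CM with CH223191 and -0.27 for CH223191 in normal medium, and over the members rho was 0.19 and -0.15. The part of other cells, mitochondrial reads and gene length in the transporter values was not tested, and in a bulk sample fewer cells of a type and less RNA per cell cannot be told apart.

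On the RPKM scale, which divides reads by gene length and library size, the 10 members with the highest mean level over the 4 libraries came from unrelated families. Slc48a1, a heme transporter of the endolysosome, had a mean of 204 RPKM. It was followed by Slc25a5, the mitochondrial ADP/ATP carrier also called ANT2, with 192, and by Slc15a3, a lysosomal peptide and histidine transporter, with 181. Their order is not firm, since Slc25a5 ranged from 143 to 281 RPKM between libraries and Slc48a1 from 178 to 224. The taurine transporter Slc6a6 (112 RPKM), the creatine transporter Slc6a8 (108) and Slc3a2 (107), the heavy chain shared by several amino acid exchangers, lay close together. The zinc importer Slc39a1 (91.6), the scaffold protein Slc9a3r1 (81.3), the sugar phosphate exchanger Slc37a2 (78.4) and the mitochondrial phosphate carrier Slc25a3 (71.9) completed the 10.

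At the other end, the limit of 100 reads let in Slc22a21 with 104 reads in all, Slc22a17 with 109 and Slc7a4 with 127, and kept out Slc18a2 with 72, Slc16a14 with 71 and Slc6a19 with 65. Slc6a19 had 2 and 4 reads in normal medium and 26 and 33 in 4T1-CM. 5 members had fewer than 50 reads summed over the normal medium libraries (Slc6a12, Slc39a4, Slc36a2, Slc35g2 and Slc22a21) and 1 had fewer than 50 in 4T1-CM (Slc18a1), so most of these could pass the limit only through the medium in which they were high. Of the 177, 175 had at least 10 reads in every library and 126 had at least 1000 reads in all.

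In 4T1-CM, 9 members were at least 2-fold higher than in normal medium both with DMSO and with CH223191. That is 5.08% of the members, beside 5.71% of the 10638 protein-coding genes with at least 100 reads. They were Slc36a2, Slc39a4, Slc6a12, Slc25a37, Slc31a2, Slc25a23, Slc7a8, Slc35g2 and Slc31a1. 5 members, or 2.82%, were at least 2-fold lower in both comparisons, beside 2.71% of those protein-coding genes: Slc18a1, Slc22a18, Slc37a2, Slc39a2 and Slc9a3r2. Both shares lie near the background, so the number of transporters past 2-fold is not a result about transporters, and no member passed 2-fold in opposite directions (background 0.0376%). Within single comparisons 10 members passed 2-fold higher (5.65%, background 7.56%) and 8 lower (4.52%, background 3.95%) with DMSO, and 11 higher (6.21%, background 7.57%) and 7 lower (3.95%, background 5.61%) with CH223191. These comparisons share no library.

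**Figure D1:**
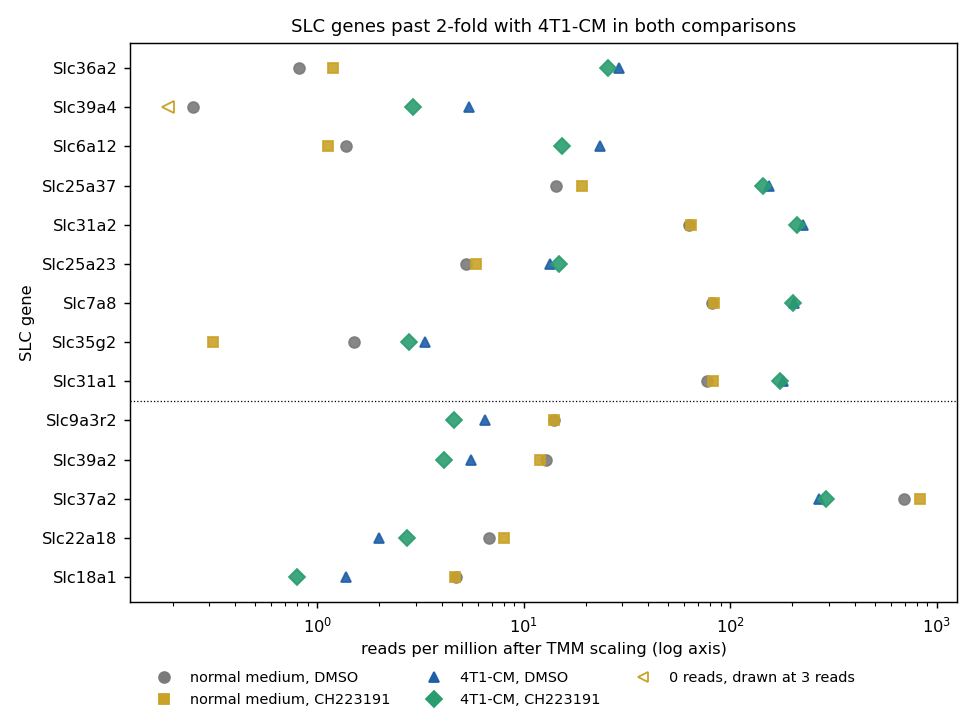
Level of the 14 SLC genes at least 2-fold higher (upper 9) or lower (lower 5) in 4T1-CM in both comparisons, in CPM after TMM scaling on a log axis, with 1 point per library. For each gene the triangles and diamonds of 4T1-CM lie on the same side of the circle and the square of normal medium; Slc39a4 had 0 reads in normal medium with CH223191 and is drawn there at the level of 3 reads.

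Counted with a lower limit of 1.5-fold, 21 members (11.9%, background 10.7%) were higher and 17 (9.6%, background 9.07%) lower in both comparisons. Without any limit of size, 70 members were higher in both (39.5%, background 38.6%), 69 were lower in both (39%, background 41%) and 38 were mixed. The median log2 ratio of the members was -0.03 with DMSO and 0.03 with CH223191, and that of the protein-coding genes -0.02 and -0.01. Across the 177 members Pearson's r between the ratios of the comparisons was 0.897 and Spearman's rho 0.819, and across the protein-coding genes they were 0.884 and 0.784. These describe genes within the same 4 libraries, which are not independent points.

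**Figure D2:**
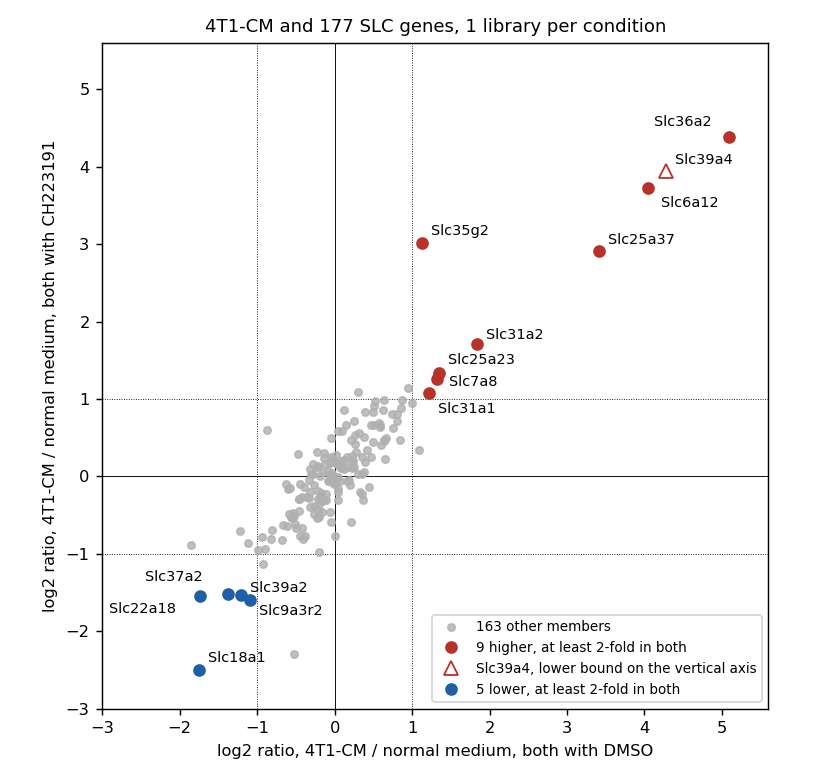
Log2 ratio of 4T1-CM to normal medium for the 177 SLC genes, with DMSO on the horizontal axis and with CH223191 on the vertical axis, and dotted lines at 2-fold. The 9 genes past 2-fold higher lie at the upper right and the 5 past 2-fold lower at the lower left, while most of the other 163 lie near the centre; the open triangle of Slc39a4 is a lower bound on the vertical axis.

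The metal carriers held the pair with the clearest shift at high read numbers. Slc31a1 (CTR1) is the high-affinity copper importer and Slc31a2 (CTR2) a copper carrier of the endolysosome. Slc31a2 had 1007 (DMSO) and 1023 (CH223191) reads in normal medium, against 3952 and 3415 in 4T1-CM. On the log2 scale the ratio with DMSO was 1.84, with a 95% interval of 1.74 to 1.94, and that with CH223191 was 1.71 (1.61 to 1.81). Slc31a1 had 1233 and 1309 reads in normal medium and 3162 and 2817 in 4T1-CM, with log2 ratios of 1.22 (1.13 to 1.32) and 1.07 (0.98 to 1.17). For both genes the libraries of 4T1-CM lay above those of normal medium with no overlap, and their summed level was 141 and 147 CPM, against 406 and 384 in 4T1-CM.

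The copper carriers are neighbours on chromosome 4, at 62262562 to 62298411 (Slc31a2) and 62360727 to 62391769 (Slc31a1), both on the forward strand, and 62315 bases lie between them. The 250 bases before a RefSeq start of each, on GRCm38.p6 at chr4:62286179-62286428 and chr4:62360451-62360700, are shown because these neighbours moved the same way. That start of Slc31a2 lies inside the gene as the table counts it, which begins further upstream. Below them stand the 250 bases before Slc37a2 at chr9:37255739-37255988 on the reverse strand, the member with the most reads among the 5 that were lower. All run 5′ to 3′ along the gene's strand, and capitals mark the core of the xenobiotic response element that AHR binds (GCGTG, or CACGC on the other strand).
Slc31a2: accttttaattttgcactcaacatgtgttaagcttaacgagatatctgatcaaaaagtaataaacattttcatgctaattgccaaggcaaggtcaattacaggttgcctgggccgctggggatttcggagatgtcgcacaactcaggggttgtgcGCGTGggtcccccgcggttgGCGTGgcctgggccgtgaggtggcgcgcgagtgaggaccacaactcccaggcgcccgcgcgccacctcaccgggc
Slc31a1: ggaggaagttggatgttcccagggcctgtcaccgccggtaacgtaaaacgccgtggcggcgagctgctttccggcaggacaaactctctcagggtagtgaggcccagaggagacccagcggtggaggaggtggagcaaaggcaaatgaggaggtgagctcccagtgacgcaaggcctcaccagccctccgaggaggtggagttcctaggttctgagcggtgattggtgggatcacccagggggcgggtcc
Slc37a2: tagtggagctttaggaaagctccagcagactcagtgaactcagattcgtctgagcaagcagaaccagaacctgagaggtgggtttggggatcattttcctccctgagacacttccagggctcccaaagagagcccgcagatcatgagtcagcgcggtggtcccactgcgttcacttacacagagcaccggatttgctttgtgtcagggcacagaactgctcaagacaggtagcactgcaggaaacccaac

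The window of Slc31a2 held 2 such cores, with their first letters 95 and 75 bases before the start, and the windows of Slc31a1 and Slc37a2 held 0. The core stood in 82 of the 176 windows of members (46.6%; 133 of the 177 members had a window) and in 28.2% of all 32851 promoter windows of the same length. Unlike the members, all windows were not limited to genes with reads here. They are therefore no matched background for this or the other motifs, and no enrichment is read from these shares. Of the windows of members past 2-fold with 4T1-CM, 4 of 11 held it among the higher and 0 of 5 among the lower, numbers too small to compare. A gene can have several windows: these belong to 6 of the 9 higher members and to 4 of the 5 lower members. 6 other motifs were searched on both strands. The metal response element core TGCNCNC stood in 49.4% of member windows and 44.4% of all windows, the antioxidant response element TGANNNNGC in 44.9% and 35.2%, and the NF-kB site in 24.4% and 17.6%. The hypoxia response element core ACGTG, which shares its last letters with GCGTG, stood in 21.6% and 16.6%, the amino acid response element TGATGNAA in 2.27% and 3.45%, and the interferon-stimulated response element in 1.7% and 2.98%. In the 11 windows of higher and the 5 of lower members, the antioxidant element stood in 7 and 3, the metal core in 6 and 1, the NF-kB site in 4 and 2, and the other 3 motifs in 0 and 0. A match is a description of letters and not a site, and no match says only that these letters are not in the window.

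Iron, magnesium and heme carriers form the rest of the group that moves metals other than zinc. The group has 7 members, of which 6 were higher in both comparisons, 2 of them past 2-fold, with medians of 0.64 and 0.46 on the log2 scale. For these and all group counts that follow, the shares over the protein-coding genes are 38.6% higher and 41% lower at any size and 5.71% and 2.71% past 2-fold, and no group is said to stand apart from them. Slc11a2 (DMT1), which carries iron out of endosomes, had 1795 and 1641 reads in normal medium and 3441 and 2936 in 4T1-CM, with log2 ratios of 0.80 (0.72 to 0.89) and 0.81 (0.72 to 0.90). The magnesium carrier Slc41a1 had 220, 298, 377 and 420 reads in the order normal medium with DMSO, normal medium with CH223191, 4T1-CM with DMSO and 4T1-CM with CH223191, an order kept from here on. The heme transporter Slc48a1, with 7809, 9663, 10793 and 8599 reads, was the exception: its log2 ratio was 0.33 with DMSO and -0.20 with CH223191.

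Zinc transporters included members that were higher and members that were lower, as the genes at large did. The Slc39a (ZIP) proteins bring zinc into the cytosol, and of 12 members 4 were higher and 6 lower in both comparisons. Slc39a4, an importer known from the intestine, had 4, 0, 95 and 47 reads. Its log2 ratio with DMSO was 4.28 (3.03 to 6.34). With CH223191 it was 15.3-fold higher in 4T1-CM when the 0 reads were set at a floor of 3. This bound leaves out the counting error of the 47 reads, and the exact interval began at a log2 ratio of 3.58. Slc39a14, an importer of zinc and of iron not bound to transferrin, had 278 and 277 reads in normal medium and 560 and 563 in 4T1-CM, with log2 ratios of 0.87 (0.67 to 1.09) and 0.99 (0.78 to 1.21), just short of 2-fold.

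Other ZIP genes were lower. Slc39a2 had 205, 191, 97 and 67 reads, with log2 ratios of -1.21 (-1.58 to -0.86) and -1.54 (-1.97 to -1.13). Slc39a11 (2100, 1963, 1238 and 1048 reads) had ratios of -0.90 and -0.94, and Slc39a10, a plasma membrane importer, of -0.93 and -0.78. Slc39a3 stood at -1.22 with DMSO and at -0.71 with CH223191. Slc39a1, the ZIP gene with the highest level per length, had smaller ratios of -0.20 and -0.35 at 3679, 3875, 3523 and 3101 reads. The 12 ZIP genes summed to 637 and 619 CPM without 4T1-CM and 516 and 491 with it, with median log2 ratios of -0.24 and -0.20 that stay as they are when Slc39a4 is set at its bound.

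The Slc30a (ZnT) proteins move zinc out of the cytosol, into vesicles or out of the cell. Of 6 members 3 were higher, 1 was lower and 2 were mixed, with medians of 0.35 and 0.38. The exception that was lower was Slc30a1, the exporter of the plasma membrane, with 1891, 1358, 956 and 763 reads and log2 ratios of -1.12 (-1.23 to -1.01) and -0.86 (-0.99 to -0.73). Slc30a9, named after its values were seen, had 1238, 937, 1949 and 1888 reads and ratios of 0.52 and 0.98.

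**Figure D3:**
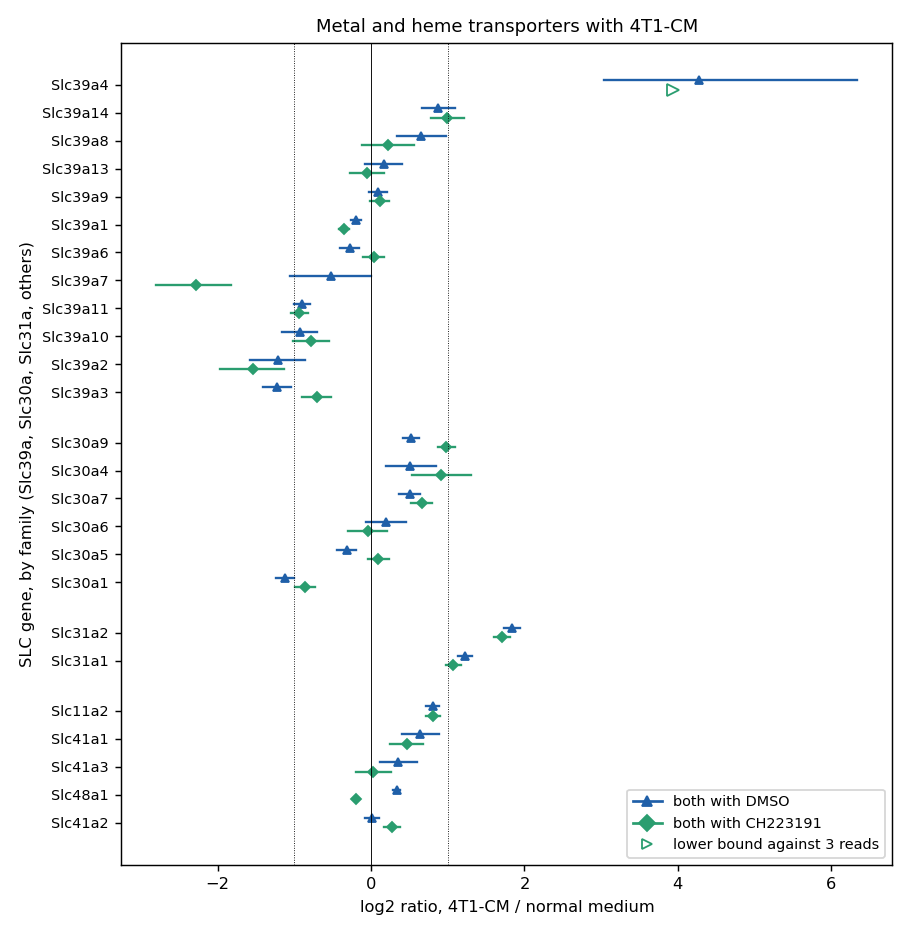
Log2 ratio of 4T1-CM to normal medium for the zinc importers (Slc39a), zinc exporters (Slc30a), copper carriers (Slc31a) and other metal and heme carriers, with DMSO (triangles) and with CH223191 (diamonds); lines are 95% exact intervals of the split of reads and dotted lines mark 2-fold. Both copper carriers lie to the right of 1, Slc39a2, Slc39a10, Slc39a11, Slc39a3 and Slc30a1 lie to the left of 0, and Slc39a7 differs between the comparisons.

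Slc39a7 needs a separate word. It had 72, 217, 55 and 45 reads, so its log2 ratio was -0.52 with DMSO and -2.29 with CH223191 through the library of normal medium with CH223191. In the annotation 80.7% of its exonic bases lie inside Gm20427, and the part of that overlap in its reads was not tested. It was named after its values were seen.

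Amino acid and peptide carriers made up 25 members. Of these 14 were higher and 7 lower in both comparisons, 3 past 2-fold higher and 0 past 2-fold lower, and the medians were 0.05 and 0.25. Slc36a2 (PAT2), a proton-coupled carrier of glycine, alanine and proline, had the largest ratio with DMSO among the members: 13 and 19 reads in normal medium against 506 and 414 in 4T1-CM, or log2 ratios of 5.10 (4.36 to 6.07) and 4.38 (3.75 to 5.16). Its neighbour Slc36a1 (PAT1), 19272 bases away on chromosome 11, is the lysosomal member of the family. It was named for its position and had 1933, 1661, 3273 and 3063 reads, with ratios of 0.62 and 0.85.

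Slc6a12 (BGT1) carries betaine and GABA with sodium and chloride and is known from cells under osmotic stress. It had 22 and 18 reads in normal medium and 408 and 248 in 4T1-CM, with log2 ratios of 4.05 (3.46 to 4.77) and 3.72 (3.06 to 4.53). Slc6a6 (TAUT), the taurine carrier of the same family and a member with far more reads, went the other way: 19208 and 19163 reads in normal medium and 11917 and 11167 in 4T1-CM, with ratios of -0.82 (-0.86 to -0.79) and -0.81 (-0.84 to -0.78). The creatine carrier Slc6a8, with 9685, 7946, 10237 and 9157 reads, had ratios of -0.055 and 0.17. Within the Slc6 family the betaine carrier was thus higher and the taurine carrier lower in both comparisons.

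The exchangers of the Slc7a family work as light chains, several of them bound to the heavy chain Slc3a2. Slc7a8 (LAT2), a light chain for neutral amino acids, had 1306 and 1329 reads in normal medium and 3572 and 3261 in 4T1-CM, with log2 ratios of 1.32 (1.22 to 1.41) and 1.26 (1.17 to 1.36). Slc7a5 (LAT1), which also carries large neutral amino acids, had 194, 141, 146 and 104 reads and ratios of -0.54 and -0.47. The heavy chain had 7155, 7032, 5463 and 5049 reads and ratios of -0.52 and -0.51. Per length, Slc7a8 stood at 16.4 and 16.7 RPKM in normal medium and at 40.8 and 40.1 in 4T1-CM, and Slc7a5 at 3.28, 2.39, 2.25 and 1.73. The peptide carrier Slc15a3 had 13597, 13944, 19946 and 18101 reads, with ratios of 0.42 and 0.35, and 28% of its exonic bases lie inside exons of another gene.

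The carriers of sugars and urate, 11 members, were lower in both comparisons in 5 cases, higher in 1 and mixed in 5, with medians of -0.28 and -0.17. Most of the reads belonged to Slc37a2, an exchanger of glucose 6-phosphate and phosphate in the endoplasmic reticulum that is abundant in macrophages. It had 11110 and 13159 reads in normal medium and 4697 and 4702 in 4T1-CM, with log2 ratios of -1.38 (-1.43 to -1.33) and -1.52 (-1.56 to -1.47), or 105, 125, 40.4 and 43.6 RPKM. The 4T1-CM libraries thus stood 2.6-fold and 2.86-fold below those of normal medium. Through it the summed level of the group was 980.3 and 1101 CPM without 4T1-CM and 506 and 532 with it. Its relative Slc37a3 had 662, 643, 475 and 421 reads, with ratios of -0.61 and -0.64, and the hexose carrier Slc2a6 had ratios of -0.27 and -0.49.

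Mitochondrial carriers were the largest group, with 37 members, and had medians of -0.02 and -0.07. Of these 13 were higher and 16 lower in both comparisons. Slc25a37 (mitoferrin-1), which brings iron into mitochondria for heme and iron-sulfur clusters, had 229 and 305 reads in normal medium and 2684 and 2340 in 4T1-CM, with log2 ratios of 3.41 (3.22 to 3.62) and 2.91 (2.74 to 3.09). Its close relative Slc25a28 (mitoferrin-2), named here as its paralog, had 229, 293, 214 and 206 reads and ratios of -0.23 and -0.54. Per length, mitoferrin-2 stood above mitoferrin-1 in normal medium with DMSO (9.49 and 2.39 RPKM) and below it in 4T1-CM with DMSO (8.07 and 25.5 RPKM). In normal medium with DMSO each had 229 reads, so their order there rests on the gene lengths used.

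Slc25a23, a calcium-dependent carrier of ATP-magnesium and phosphate, had 84, 93, 235 and 240 reads and ratios of 1.34 (0.98 to 1.73) and 1.33 (0.99 to 1.70). Slc25a36, a pyrimidine nucleotide carrier, had 779, 661, 1328 and 1334 reads, with ratios of 0.63 and 0.98. Slc25a13 (citrin), the aspartate/glutamate exchanger, was lower, with 885, 716, 612 and 472 reads and ratios of -0.67 and -0.63. The ADP/ATP carrier Slc25a5 had 4826, 7347, 4607 and 3811 reads, so that its ratio was -0.20 with DMSO and -0.98 with CH223191, and 33.8% of its 50-base words also occur in transcripts of other genes.

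Organic ion carriers had 8 members, 2 higher and 4 lower in both comparisons. Slc22a4, the carnitine and ergothioneine carrier, had 507, 522, 975 and 878 reads and ratios of 0.81 (0.65 to 0.97) and 0.72 (0.56 to 0.88). Slc22a18, an organic cation carrier of an imprinted region on chromosome 7, had 108, 127, 35 and 44 reads and ratios of -1.75 (-2.35 to -1.20) and -1.55 (-2.09 to -1.05). Slc18a1 (VMAT1), which loads monoamines into vesicles, had 75, 74, 24 and 13 reads and ratios of -1.76 (-2.51 to -1.10) and -2.49 (-3.51 to -1.68). Both genes were thus low in each library, and their intervals were wide.

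Among the 17 carriers of protons, bicarbonate and inorganic ions, 7 were higher and 9 lower in both comparisons, with 0 past 2-fold in both. The neuronal potassium-chloride cotransporter Slc12a5 had 40, 44, 85 and 100 reads and ratios of 0.94 and 1.14, and its ubiquitous relative Slc12a4 had 1762, 1628, 1103 and 1030 reads and ratios of -0.81 and -0.69. The sodium/proton exchangers Slc9a5 (ratios 1.0 and 0.94) and Slc9a4 (0.74 and 0.80) were higher at 54 to 269 reads per library. Among the 4 members that are not carriers, 1 was higher and 3 lower, and the scaffold protein Slc9a3r2, which anchors an exchanger of the Slc9 family, had 223, 223, 114 and 75 reads and ratios of -1.10 (-1.44 to -0.77) and -1.60 (-2.0 to -1.22).

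Both sodium-phosphate cotransporters of the Slc20a family were higher. Slc20a1 (PiT1) had 886, 907, 1763 and 1704 reads and ratios of 0.86 (0.74 to 0.98) and 0.88 (0.76 to 1.0), and Slc20a2 (PiT2) had ratios of 0.67 and 0.49. Their summed level was 71.9, 73.5, 127 and 128 CPM. Of the other anion carriers, Slc26a6 had ratios of -0.16 and -0.46 and Slc26a11 of -0.32 and -0.21.

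The Slc35 family, which holds nucleotide sugar carriers that supply the Golgi with substrates for glycosylation and related proteins, had ratios near 0. Its 21 members, not all of them nucleotide sugar carriers, had medians of -0.05 and 0.10, and apart from Slc35g2 each ratio lay between -0.62 and 0.47. Slc35g2 had 24, 5, 58 and 45 reads, and its log2 ratios of 1.12 (0.43 to 1.89) and 3.02 (1.81 to 4.83) rest on these few reads. The carriers of lactate and other monocarboxylates gave 4 members, with Slc16a1 (MCT1) at 361, 324, 596 and 517 reads (ratios 0.59 and 0.64) and Slc16a13 at 189, 153, 141 and 108 (-0.56 and -0.53).

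Of 7 vitamin carriers 4 were higher and 2 lower in both comparisons. The proton-coupled folate carrier Slc46a1 had 271, 256, 451 and 346 reads and ratios of 0.60 and 0.40. Slc46a3, a lysosomal protein of the same family, had 236, 212, 136 and 99 reads and ratios of -0.93 (-1.25 to -0.62) and -1.13 (-1.49 to -0.78). Among 8 carriers of lipids, choline, bile acids and acetyl-CoA, the fatty acid carrier Slc27a6 had 305, 194, 92 and 107 reads, with ratios of -1.86 and -0.89, while Slc27a1 had 3494, 3459, 4627 and 4382 reads and ratios of 0.27 and 0.31. The 3 nucleoside carriers had medians of -0.08 and 0.05, and the lysosomal Slc29a3 among them had 3950, 4603, 3281 and 2689 reads, with ratios of -0.40 and -0.81.

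**Figure D4:**
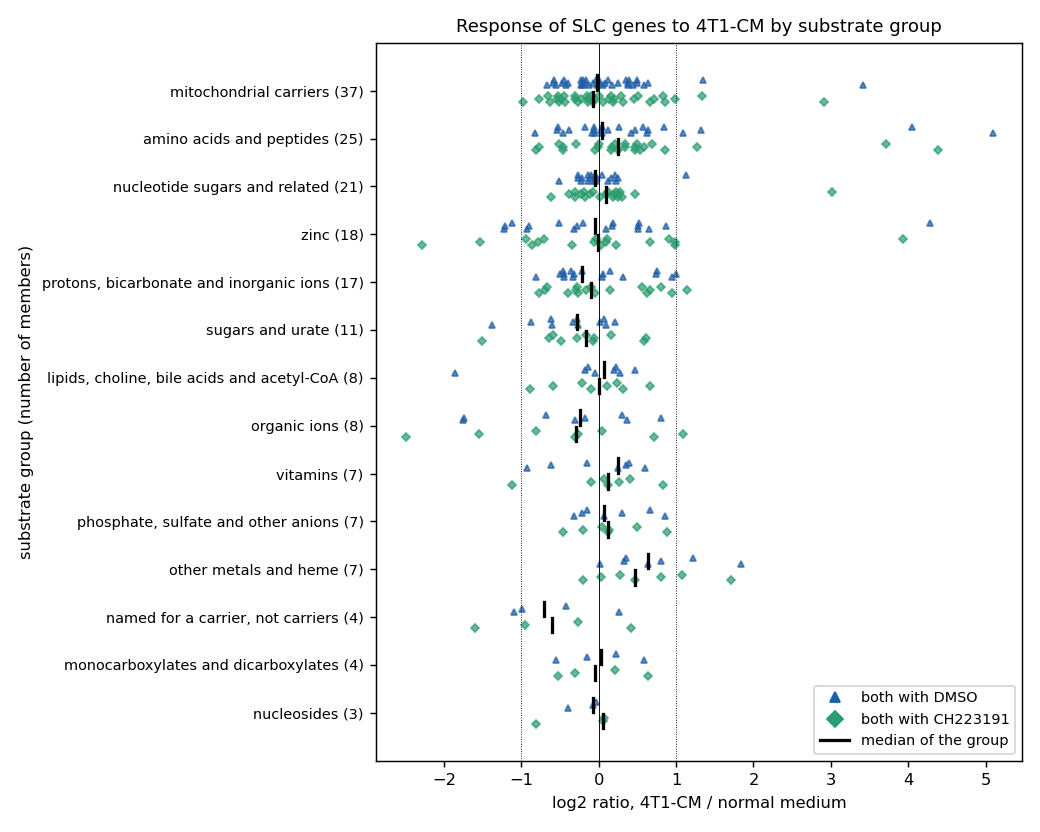
Log2 ratio of 4T1-CM to normal medium for each of the 177 members by substrate group, with DMSO (triangles) and with CH223191 (diamonds); black bars are the medians of a group, dotted lines mark 2-fold and Slc39a4 is drawn at its lower bound with CH223191. The medians of most groups lie near 0, that of the 7 other metal and heme carriers lies at 0.64 and 0.46, and single members far from 0 occur in several groups.

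Few of the transporters differed past 2-fold with CH223191. In normal medium 1 member was at least 2-fold higher with the inhibitor (0.565% of members, background 1.33%), which was Slc39a7, and 2 were at least 2-fold lower (1.13%, background 0.696%), namely Slc35g2 with 24 and 5 reads and Slc39a4 with 4 and 0. The call of Slc39a4 rests on the prior count of 0.5 that enters each ratio. With the 0 reads set at the floor of 3 it was 1.33-fold lower, and its interval spanned no difference. In 4T1-CM 0 were higher and 0 lower past 2-fold (background 0.263% and 0.329%). None passed 2-fold the same way in both media (background 0.047% higher and 0.0282% lower). At 1.5-fold 0 were higher in both media (background 0.357%) and 1 was lower (background 0.235%), which was Slc39a4 and is not kept against that floor. At any size, 39 members were higher with CH223191 in both media (22%, background 27%) and 60 were lower (33.9%, background 26.6%). The median log2 ratios of the members were -0.04 in normal medium and -0.02 in 4T1-CM, beside 0.0006 and 0.0019 for the protein-coding genes. Pearson's r between the media was 0.213 across members.

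A few members differed by less and with the same sign in both media. Slc30a1, the zinc exporter, had ratios of CH223191 to DMSO of -0.47 (-0.58 to -0.37) without 4T1-CM and of -0.22 (-0.36 to -0.08) with it. Slc38a6, of the glutamine transporter family, had -0.31 (-0.43 to -0.18) and -0.47 (-0.57 to -0.37), and Slc7a5 had -0.46 and -0.38. In the other direction Slc41a1 had 0.44 (0.19 to 0.70) and 0.26 (0.06 to 0.47), and Slc50a1, a sugar carrier, had 0.28 and 0.32. The copper carrier Slc31a2, named here for its promoter window and not by rank, had ratios without a common sign, 0.03 (-0.10 to 0.15) and -0.10 (-0.17 to -0.04). A part of AHR in its level was not tested. In an additive quasi-likelihood fit of edgeR over the 4 libraries (medium and inhibitor as terms, 1 residual degree of freedom), 0 members passed an adjusted p of 0.05 for CH223191 (background 0.0282% higher and 0.0094% lower), and at an unadjusted p under 0.05 there were 3 higher and 9 lower (background 3.77% and 2.27%).

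**Figure D5:**
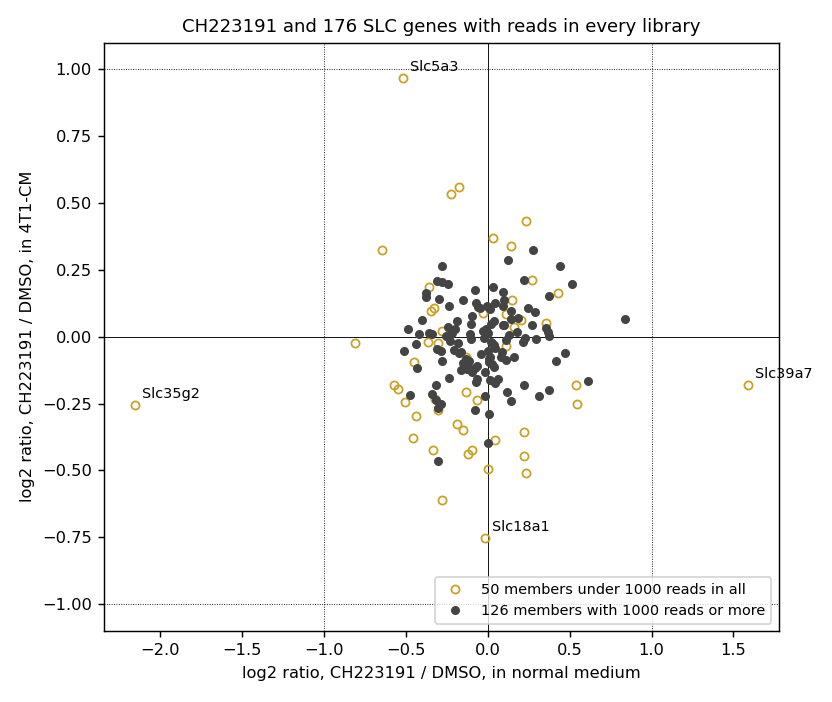
Log2 ratio of CH223191 to DMSO in normal medium (horizontal) and in 4T1-CM (vertical) for the 176 members with reads in every library, with filled points for the 126 members of at least 1000 reads in all and dotted lines at 2-fold. Points gather near 0, with more members lower in both media than higher in both. The members farthest out in normal medium, Slc39a7 and Slc35g2, have few reads. Slc39a4 is left out for its count of 0.

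The response to 4T1-CM with CH223191 minus that with DMSO had a median of 0.02 over the members on the log2 scale, and 4 members had a difference of at least 1 either way. The same additive fit called 38 members higher with 4T1-CM (21.5%, background 17.7%) and 33 lower (18.6%, background 19.1%). That fit takes libraries of different conditions in place of replicates. Its p-values, for the medium and for the inhibitor, therefore do not measure spread between cultures or mice.

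13 pairs of members lie within 200 kilobases of each other and involve 23 members. Slc31a2 with Slc31a1 was the pair with both past 2-fold. Slc7a6, a light chain for cationic and neutral amino acids, and Slc7a6os, which is no carrier, lie 2010 bases apart on chromosome 8 and differed in sign: Slc7a6 had 174, 170, 284 and 280 reads and ratios of 0.57 and 0.69, and Slc7a6os had 394, 322, 218 and 170 reads and ratios of -0.99 and -0.95. In the cluster on chromosome 11, Slc22a4 had ratios of 0.81 and 0.72 and its neighbour Slc22a5, the carnitine carrier, of -0.17 and -0.27. Close position thus went with the same direction in some pairs and not in others.

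Proteins of the SLC superfamily that go under other symbols formed a list of 53 genes, of which 50 were in the table and 37 had at least 10 reads in a library. Past 2-fold in both comparisons, 4 of these were higher and 2 lower. Over all 13715 genes with at least 10 reads in a library, 8.19% were higher and 3.38% lower by that rule, and the counts of this list and of those that follow are too small to be set apart from these shares. Mfsd7a had 151, 145, 625 and 651 reads, and the organic anion carrier Slco4a1 had 10, 3, 167 and 136. The other higher genes had few reads: Slco2a1, the prostaglandin carrier, had 7, 10, 17 and 21, and Sfxn4 had 4, 2, 16 and 6. Mfsd12, a lysosomal cysteine carrier, had 13072, 13812, 5488 and 4909 reads, with log2 ratios of -1.39 and -1.52. Slco2b1 had 81, 139, 0 and 5 reads. Of 12 accessory proteins 11 were measured, with 1 higher and 1 lower past 2-fold, the latter being Slc9a3r2. Emb, a chaperone of monocarboxylate carriers, had 1476, 1436, 3812 and 3452 reads with a ratio of 1.23 in each comparison. Of 29 ABC transporters, the pumps that use ATP, 28 were measured and 2 passed 2-fold higher: the cholesterol exporter Abca1 with 5825, 6707, 40102 and 43783 reads and the drug pump Abcb1a with 119, 92, 623 and 670.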

How the data were processed

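RNA-seq of 4 libraries was analysed. The table deposited by the authors holds raw counts of reads for each gene. HISAT2 2.0.5 and DESeq2 are named in the submitters' processing notes and the NEBNext Ultra kit in the labels; the counter, the genome build and the use of strand in counting for these libraries are not given in the sources used here, so values of overlapping genes, antisense partners and near copies are uncertain. Gene coordinates in the table were identical to GENCODE M21 (GRCm38) for 167 of the 177 members. Of the members, 13 share over 20% of their 50-base words with transcripts of other genes and 7 have over 20% of their exonic bases inside exons of other genes. Besides those flagged in the text, these include Slc39a1, Slc22a5, Slc22a21 and Slc9a4.

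Each of the 4 columns was matched to a sample through its name, its label and the study's terms for the media. Libraries were scaled by TMM (edgeR 4.0.16, R 4.3.3), and log2 ratios were taken with a prior count of 0.5. A gene passed when its ratio reached 2-fold, and background shares are those of the 10638 protein-coding genes with at least 100 reads or, for gene lists, of the 13715 genes with at least 10 reads in a library, over which the additive fit was also run. Adjusted p-values are Benjamini-Hochberg values over those 13715 genes. Intervals and RPKM were computed in Python 3.11.15 with scipy 1.17.1, and figures drawn with matplotlib 3.10.9. The procedure was tested on simulated counts that held counting error only. That test says nothing about spread between cultures or mice.

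The members, gene lists and substrate groups were chosen with earlier results of these data known, and the SLC symbols of the 4 proteins that are not carriers were moved to a group of their own after the counts were seen. The text names the 15 members highest and the 15 lowest with 4T1-CM by the smaller of both ratios, 6 each way with CH223191, the 10 with the highest mean RPKM, up to 4 per substrate group and those at the limit of 100 reads. Slc36a1, Slc39a7, Slc30a9, Slc25a28, Slc7a6, Slc22a5 and the members with opposite signs were added after their values were seen, and genes of the lists are named with their list. Promoter windows come from RefSeq (GRCm38.p6), matched by symbol. The alternatives were DESeq2 1.42.0 size factors, total counts, a prior count of 5, TMM from protein-coding genes, other read minimums, a 1.5-fold limit and the additive fit.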

Additional observations from a re-analysis of the deposited data

Results flagged for a closer look

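For 7 members the interval of the log2 ratio of 4T1-CM to normal medium lay on one side of 0 with DMSO and on the other with CH223191. Whether the comparisons differ was not tested, since each condition had 1 library, and the intervals cover counting error only. The heme transporter Slc48a1 had ratios of 0.33 with DMSO and -0.20 with CH223191, and the creatine carrier Slc6a8 had -0.055 and 0.17. The mitochondrial carriers Slc25a16 (-0.23 and 0.31) and Slc25a44 (0.35 and -0.23) went in opposite ways. The choline carrier Slc44a1 had -0.13 and 0.24, and Slc45a4 had -0.28 and 0.16. The myo-inositol carrier Slc5a3 had the widest difference of the 7, with -0.88 and 0.61 at 59, 41, 35 and 64 reads. For none of the 7 was the size past 2-fold in either comparison.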

How the results depend on the processing

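No paired analysis was possible because each condition had 1 library and the labels give no replicate numbers; for the same reason no library could be left out. The 9 members higher and 5 lower past 2-fold with 4T1-CM in both comparisons were the same genes with DESeq2 size factors, total counts, a prior count of 5 and TMM from protein-coding genes. When each library had to hold 10 reads, 7 of the 9 remained, without Slc39a4 and Slc35g2, and 5 of the 5. Without a minimum of reads, 4T1-CM gave 27 SLC genes higher and 13 lower, and CH223191 gave 5 and 3. A limit of 1.5-fold gave 21 and 17 with 4T1-CM and 1 lower with CH223191, and the additive fit gave 38 and 33. With a prior count of 5, CH223191 in normal medium had 1 member lower past 2-fold in place of 2, Slc39a4 being lost. The ratio of Slc15a3 for CH223191 in normal medium was -0.018 with total counts and 0.04 with TMM. Of 276 ratios of named members, 10 others moved by more than their interval with total counts and 1 with a prior count of 5. Leaving out members that share sequence or exons, chosen after seeing the data, kept the counts past 2-fold in both comparisons as they were. The counts of single comparisons were not repeated that way. Slc39a7, the 1 member past 2-fold higher with CH223191 in normal medium, is among those left out. Depth limits the members at few reads, above all Slc39a4, Slc35g2, Slc36a2 and Slc18a1.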
